A study of Mus musculus with 8 samples.

Results

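Ubiquitin ligases, ubiquitin-conjugating enzymes and deubiquitinases were followed through cultures of 2 kinds of cells sorted from mouse hind limb muscle. The genes were taken from the authors' table by symbol: those that begin with Usp, Rnf, Trim, Fbxo, Fbxl, Asb or Cul and a number, or with Ube2 or Ube3. The rule gave 110 of the 5457 listed genes, namely 29 Usp, 24 Rnf, 18 Trim, 13 Ube2, 11 Fbxo, 6 Cul, 5 Fbxl, 3 Asb and 1 Ube3 gene. All 110 are annotated as protein coding (GENCODE M21, GRCm38), and all 110 were tested. Usp6nl entered by its symbol and is a Rab GTPase-activating protein related to a Usp gene, not a deubiquitinase.

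The cells came from adult C57BL/6 mice of the genotypes Pax7-CreERT2/+;R26-tdTO+ and Tw2-CreERT2/+;R26-tdTO+. Tamoxifen, given 3 times with 10 days before the muscle was taken, let a Cre recombinase under Pax7 or Twist2 (Tw2) control switch on the red fluorescent protein tdTomato, and red cells were sorted and plated on Matrigel. Each genotype gave 2 libraries in growth medium (Pax7_GM and Tw2_GM) and 2 at 48 (Pax7_48 and Tw2_48), a number that carries the unit hours in the titles of the Tw2 libraries only. The labels describe a growth medium with 20% fetal bovine serum and a differentiation medium with 2% horse serum for Twist2-positive myoblasts, and do not say which medium the libraries at 48 had or what was done for the Pax7 cells. They call the RNA both freshly sorted and cultured, and they do not say whether the 2 libraries of a group came from separate animals, so p-values measure the spread between these libraries only. Both genotypes carry the same reporter, and neither Cre allele was compared with cells that lack it.

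Ubiquitin is a small protein that is attached to other proteins in a relay of an activating enzyme (E1), a conjugating enzyme (E2, the Ube2 genes) and a ligase (E3) that picks the substrate. Most Trim and Rnf ligases carry a RING domain. Cullins are scaffolds that hold a RING protein at one end and an exchangeable substrate receptor at the other. Such a receptor is an F-box protein (Fbxo, Fbxl) on Cul1 or an Asb protein on Cul5. Usp enzymes take ubiquitin off again. In muscle this system is known for the turnover of sarcomere proteins in atrophy, and in dividing cells for the timed destruction of cyclins and of their inhibitors.

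Values are in CPM, read counts scaled to a common library size, in single libraries, recovered from the deposited mean of each group, and the deeper library of a pair is always given first. Implied library sizes were 5.18 to 13.7 M reads, and 3 reads, which is the 95% upper limit allowed by 0 reads, came to 0.218 to 0.579 CPM; such limits cover counting error alone. The table is selected: each listed gene differs at least 2-fold (on CPM + 1) between Tw2_GM and another group, so most listed genes pass any test, and counts of a group are given with the share over all 5452 genes tested. Each tested gene also had at least 10 CPM in at least 4 libraries. Trim63, Asb2 and Usp13 reached 10 CPM only at 48, and Ube2c, Ube2s, Ube2t and Fbxo5 only in growth medium. For such genes the direction of the change with culture is in part set by this selection. Differences are log2 of CPM + 1 with a standard error from 1 fit over all 8 libraries (limma, Benjamini-Hochberg adjustment over the 5452 genes; ± is that standard error, n = 2 libraries a group), and a gene was called at an adjusted p under 0.05. The pseudocount makes differences smaller for genes near 1 CPM. In bulk RNA, fewer cells of a type and less RNA per cell cannot be told apart. Pax7 itself was at 117 and 112 CPM in Pax7_GM and at 113 and 109 CPM in Tw2_GM, and at 9.58 to 13.0 CPM in the libraries at 48; Twist2 was not analysed here. Of the markers fixed for other cells, 7 of 12 muscle differentiation genes summed to 821 to 914 CPM in Pax7_GM, 227 to 282 in Tw2_GM, 9021 to 9224 in Pax7_48 and 11804 to 12105 in Tw2_48. Of these 12 genes 10 are listed, and the listed ones outside the 7 could not be taken apart into single libraries. All 5 proliferation genes summed to 621 to 691 CPM, 1463 to 1738, 28.02 to 28.3 and 19.5 to 20.5 CPM in the same order. The 5 of 8 satellite cell genes summed to 1746 to 1924, 1378 to 1486, 3242 to 3564 and 2093 to 2147 CPM. Of these, Cdh15 and Itga7 were called higher at 48 in both lineages, and Pax7, Vcam1 and Sdc4 lower. The falls of Pax7, Vcam1 and Sdc4 were 3.42, 3.18 and 2.02 in the Pax7 lineage and 3.02, 4.33 and 3.08 in Tw2. The 4 of 10 fibroblast genes summed to 917 to 928, 948 to 999, 403 to 431 and 204 to 243 CPM. Col3a1 made up most of that sum in Tw2_GM, where Col1a2 was 118-fold, Prrx1 9.80-fold and Col1a1 4.32-fold lower than in Pax7_GM in mean CPM, the last not called. The 4 of 7 pericyte and smooth muscle genes summed to 783 to 887, 686 to 728, 5186 to 5484 and 8272 to 8664 CPM. In Pax7_48 1 of them was at 0. Only Acta2 was called higher at 48, 7.40-fold in Pax7 and 15.4-fold in Tw2 in mean CPM. Of the 4 genes, 3 were called lower at 48 in Pax7 and 2 in Tw2. Of 8 immune genes only Itgam was among the genes tested, at 0 CPM in Tw2_GM, 0.542 and 0.579 in Pax7_GM and 11.9 to 22.8 CPM at 48. No endothelial, glial or adipocyte marker was among the genes tested. These sums move with the comparisons below, and their part in the results was not tested.

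Between growth medium and 48 the muscle ligases rose in both lineages. Of 25 genes on a list of ubiquitin genes known from striated muscle, 11 were tested, and the other 14, among them the atrophy ligase Fbxo32, were not analysed here. In the Pax7 lineage 10 of the 11 were called higher at 48 and none lower, with a median log2 difference of 2.42 against 0.01 over all genes. In the Tw2 lineage 10 were called higher and 1 lower, with a median of 3.76 against -0.49 over all genes. The background is 38.8% called higher and 40.5% lower over all genes for Pax7, and 35.3% higher and 48.9% lower for Tw2. This list and the cell cycle list below were chosen with earlier results of these data known. Their counts beside the background are a description and no test of the lists. The summed muscle differentiation markers rose at the same time, as given above.

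The 3 MuRF ligases are RING proteins of the Trim family that bind sarcomere or microtubule structures. Trim63 (MuRF1, chr4:134315120-134329629, + strand), the ligase best known from muscle atrophy, was at 7.72 and 6.37 CPM in Pax7_GM, 108 and 99.8 in Pax7_48, 2.14 and 3.01 in Tw2_GM, and 171 and 183 CPM in Tw2_48. Both libraries at 48 exceeded both growth medium libraries of their lineage, and in growth medium Pax7 was above Tw2 while at 48 the order was the other way round. Its log2 difference was 3.71 ± 0.16 in Pax7 (adjusted p = 3.31e-07) and 5.65 ± 0.16 in Tw2 (adjusted p = 2.39e-08), or 14.7-fold and 68.6-fold in mean CPM. Trim55 (MuRF2, chr3:19644474-19692421, + strand) was at 57.04 and 58.3 CPM in Pax7_GM, 308 and 275 in Pax7_48, 42.9 and 41.1 in Tw2_GM, and 365 and 326 CPM in Tw2_48. Its rise came to 2.32 ± 0.13 in Pax7 and 3.01 ± 0.13 in Tw2. Trim54 (MuRF3, chr5:31116712-31137630, + strand) was at 27.5 and 28.6 CPM in Pax7_GM, 164 and 188 in Pax7_48, 3.29 and 4.07 in Tw2_GM, and 87.01 and 86.6 CPM in Tw2_48, and it was the MuRF gene whose Pax7 libraries lay above the Tw2 libraries in both cultures. The rise was 2.61 ± 0.14 in Pax7 and 4.24 ± 0.14 in Tw2. Per kilobase of the longest transcript, the level in Pax7_48 was 123 CPM per kb for Trim54, 112 for Trim55 and 55.1 for Trim63, and in Tw2_48 it was 60.5, 133 and 93.6.

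Trim72 (chr7:128003949-128011033, + strand), also called MG53, is known for the repair of the muscle cell membrane. It was at 129.8 and 113 CPM in Pax7_GM, 946 and 940.1 in Pax7_48, 13.6 and 11.3 in Tw2_GM, and 804 and 837 CPM in Tw2_48. At 48 it had the highest level per kilobase of all 110 genes in both lineages, 442 CPM per kb in Pax7_48 and 384 in Tw2_48. In both cultures each Pax7 library was above each Tw2 library, in growth medium 9.74-fold in mean CPM. At 48 the log2 difference between the lineages was -0.20, not called, and its sign depended on the scaling, as given below. With culture Trim72 changed by 2.95 ± 0.14 in Pax7 (adjusted p = 4.80e-07) and by 5.93 ± 0.14 in Tw2 (adjusted p = 1.45e-08).

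The bases in front of the start of these genes are shown because Trim63, Trim54 and Trim72 rose together, and because they can be set against the genes that fell. They are the 250 bases before the RefSeq start (GRCm38.p6), 5′ to 3′ on the gene's strand, and capitals mark CAGCTG, an E-box of the kind bound by myogenic basic helix-loop-helix factors, CACCTG and CTANNNNTAG (a Mef2-type core), searched on both strands. For Trim63 and Trim54 they hold 1 CAGCTG each and for Trim72 none of the motifs. The RefSeq start of Trim72 lies inside the gene span given above, so its window is not in front of that span.
Trim63 (chr4:134314870-134315119, + strand): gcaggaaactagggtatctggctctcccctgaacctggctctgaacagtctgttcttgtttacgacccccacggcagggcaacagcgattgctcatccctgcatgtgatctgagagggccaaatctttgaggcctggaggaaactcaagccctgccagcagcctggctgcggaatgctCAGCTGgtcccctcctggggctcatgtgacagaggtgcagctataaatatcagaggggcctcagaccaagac
Trim54 (chr5:31116362-31116611, + strand): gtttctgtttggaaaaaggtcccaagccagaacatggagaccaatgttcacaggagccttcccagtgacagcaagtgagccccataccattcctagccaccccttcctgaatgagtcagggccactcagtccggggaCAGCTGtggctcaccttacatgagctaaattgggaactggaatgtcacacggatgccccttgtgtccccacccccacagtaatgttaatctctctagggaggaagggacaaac
Trim72 (chr7:128004128-128004377, + strand): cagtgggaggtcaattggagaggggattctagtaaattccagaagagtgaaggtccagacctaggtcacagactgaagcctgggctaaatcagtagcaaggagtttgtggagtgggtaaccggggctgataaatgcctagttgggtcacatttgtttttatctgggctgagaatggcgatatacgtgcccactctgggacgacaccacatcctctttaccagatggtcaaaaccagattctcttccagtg
Of the 10 muscle list genes with such an entry, 3 hold CAGCTG, against 12.8% of 27025 genes with an entry of the same length. CACCTG was in 1 of the 10 (17.1% of all genes) and CTANNNNTAG in 0 (3.23% of all genes). A match is a run of letters in this window and no record of binding.

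The substrate receptors on the muscle list rose too. Asb2 (chr12:103321142-103356001, - strand), the receptor of a Cul5 ligase known to act on filamins, was at 7.59 and 8.10 CPM in Pax7_GM, 196 and 227 in Pax7_48, 1.31 and 0.885 in Tw2_GM, and 185 and 198 CPM in Tw2_48. Its Tw2_GM libraries held 16 and 10 reads. It had the largest log2 difference of all 110 genes in both lineages, 4.58 ± 0.15 in Pax7 (adjusted p = 1.98e-07) and 6.52 ± 0.15 in Tw2 (adjusted p = 1.45e-08). All 3 Asb genes were highest in Pax7_48 and lowest in Tw2_GM by their group means (20.2% of all genes were highest in Pax7_48). Asb8 was at 41.998 and 40.5 CPM in Pax7_GM, 94.3 and 102 in Pax7_48, 33.5 and 36.2 in Tw2_GM, and 84.4 and 78.9 CPM in Tw2_48, a smaller rise of 1.23 ± 0.13 and 1.20 ± 0.13, and neither lineage comparison was called. Asb1 was at 27.4 and 26.2 CPM in Pax7_GM, 75.2 and 77.9 in Pax7_48, 19.96 and 18.4 in Tw2_GM and 65.2 and 60.9 CPM in Tw2_48, and rose by 1.48 ± 0.12 and 1.67 ± 0.12.

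Fbxl22 (chr9:66508459-66514593, - strand), an F-box protein of the sarcomere's Z-disc, was at 10.97 and 8.49 CPM in Pax7_GM, 145 and 122 in Pax7_48, 2.22 and 2.48 in Tw2_GM, and 101 and 108 CPM in Tw2_48. The libraries at 48 lay apart from those in growth medium by an order of magnitude or more in both lineages. It rose by 3.65 ± 0.16 in Pax7 (adjusted p = 3.31e-07) and by 4.98 ± 0.16 in Tw2 (adjusted p = 3.64e-08). Fbxo30 (chr10:11281330-11298052, + strand), known as MUSA1 from muscle atrophy, did not follow: it was at 5.69 and 16.2 CPM in Pax7_GM, 17.01 and 13.4 in Pax7_48, 72.2 and 59.7 in Tw2_GM, and 37.1 and 31.7 CPM in Tw2_48. The Pax7_GM libraries of Fbxo30 differed 2.85-fold and enclosed one of the Pax7_48 libraries, and no change was called in Pax7. In Tw2 it was called lower at 48 by -0.92 ± 0.38 with an adjusted p of 0.0495, a call that was lost when any 1 library other than a Pax7_GM library was left out, at values from -0.78 to -1.05.

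Usp2 (chr9:44067021-44095627, + strand), a deubiquitinase whose substrates include cyclin D1, was at 19.1 and 19.7 CPM in Pax7_GM, 102 and 115 in Pax7_48, 3.86 and 3.90 in Tw2_GM, and 65.5 and 64.3 CPM in Tw2_48. Pax7 lay above Tw2 in both cultures, and both lineages rose, by 2.42 ± 0.12 (adjusted p = 6.78e-07) and 3.76 ± 0.12 (adjusted p = 4.10e-08). Usp13 (chr3:32817546-32938071, + strand) was at 4.34 and 5.98 CPM in Pax7_GM, 22.8 and 21.2 in Pax7_48, 9.61 and 8.85 in Tw2_GM, and 68.01 and 57.998 CPM in Tw2_48, and here the Tw2 libraries were the higher ones in both cultures. It rose by 1.91 ± 0.17 and 2.64 ± 0.17. Rnf123, the catalytic subunit of the KPC ligase for the cyclin-dependent kinase inhibitor p27, was at 62.5 and 58.8 CPM in Pax7_GM, 115 and 129 in Pax7_48, 38.03 and 37.5 in Tw2_GM, and 110.3 and 109 CPM in Tw2_48 and rose by 1.00 ± 0.12 and 1.51 ± 0.12. Standard errors over the 11 genes ran from 0.12 to 0.38, and the adjusted p-values of the called rises of Pax7 did not exceed 0.000108.

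**Figure D1:**
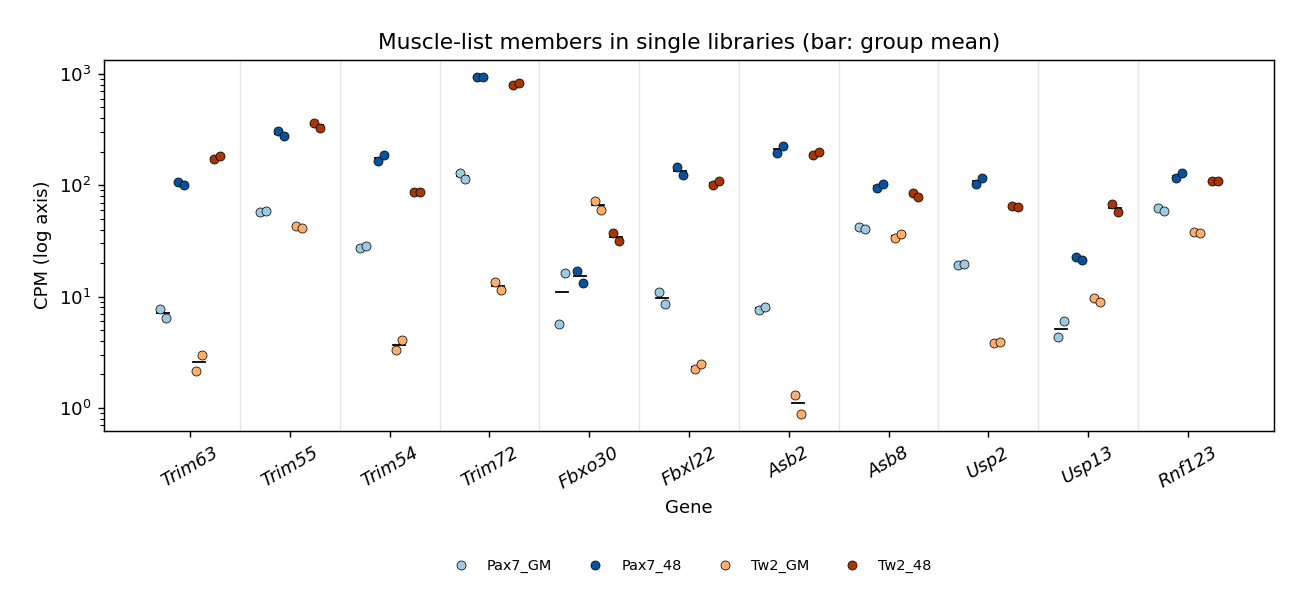
CPM (log axis) of the 11 tested muscle list genes in the 8 single libraries; each point is a library and each bar the mean of the 2 libraries of a group. Every gene but Fbxo30 is higher at 48 than in growth medium in both lineages, and Trim72, Trim54, Asb2, Fbxl22 and Usp2 have the Pax7 growth medium libraries farthest above those of Tw2.

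The lineages differed in where these genes started. In growth medium 8 of the 11 were called lower in Tw2 than in Pax7 and 2 higher, with a median log2 difference of -1.18 (over all genes 0.34, with 48.7% called higher and 26% lower). At 48, 2 were called lower and 3 higher (over all genes 43.3% higher and 22.1% lower). The 2 higher were Fbxo30 (2.63 ± 0.38) and Usp13 (0.74 ± 0.17); with the trend of GC content and length removed Fbxo30 came to 1.07, and with size factors Usp13 came to -0.02 and was not called. The largest differences in favour of Pax7 in growth medium were those of Trim72 (-3.19 ± 0.14, adjusted p = 4.25e-06), Trim54 (-2.64 ± 0.14, adjusted p = 6.92e-06), Asb2 (-2.08 ± 0.15, adjusted p = 2.86e-05), Usp2 (-2.06 ± 0.12) and Fbxl22 (-1.67 ± 0.16). These 5 were called under each of the alternatives that were run. With the trend of GC content and length removed they came to -2.14, -1.46, -1.14, -1.35 and -1.15, and with a pseudocount of 4 Asb2 and Fbxl22 came to -1.22 and -1.11. The differences of Trim54 and Usp2 at 48 were -1.01 and -0.73. With the trend removed they came to -0.22 and -0.30, and neither was called. In growth medium with the trend removed 5 of the 11 were called lower and 3 higher: the calls of Trim63 (-1.18, to -0.22), Trim55 (-0.45, to -0.14) and Rnf123 (-0.67, to 0.02) were lost. Trim72 at 48 had -0.20, not called, and 0.48 with the trend removed, where it was called higher in Tw2.

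Tw2 began lower in growth medium, and for these genes the change itself was larger in Tw2. The difference of changes (48 minus GM in Tw2, less the same in Pax7) was called higher for 7 of the 11 and lower for none, over a background of 9.72% called higher and 9.01% lower. It was 2.99 ± 0.20 for Trim72 (adjusted p = 0.000149), 1.94 ± 0.23 for Trim63 (adjusted p = 0.00119), 1.94 ± 0.21 for Asb2 (adjusted p = 0.000843), 1.63 ± 0.20 for Trim54 (adjusted p = 0.00140) and 1.33 ± 0.18 for Usp2 (adjusted p = 0.00209). These 5 calls held under each of the alternatives that were run, with values of 1.08 for Asb2, 1.08 for Trim54 and 0.86 for Usp2 at a pseudocount of 4. Fbxl22 had 1.32 ± 0.23, which came to 0.85 and was not called under quantile normalization. Trim55 had 0.69 ± 0.18, and its call was lost without any 1 of the 6 libraries outside Pax7_GM, at values from 0.61 to 0.77. The summed muscle differentiation markers were lower in Tw2_GM than in Pax7_GM and higher in Tw2_48 than in Pax7_48, as given above, and their part in the difference was not tested.

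The enzymes of the cell cycle fell. Of 10 genes on that list 9 were tested. In Pax7 8 were called lower at 48 and none higher, with a median log2 difference of -1.37, and in Tw2 all 9 were called lower, with a median of -2.96 (over all genes 40.5% were called lower in Pax7 and 48.9% in Tw2). The summed proliferation markers fell with them, from 621 or more to 28.3 CPM or less, and their part was not tested.

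The 3 largest falls in both lineages were those of Ube2c, Fbxo5 and Ube2t. Ube2c works with the anaphase-promoting complex (APC/C), the ligase that destroys cyclins, Fbxo5 inhibits it, and Ube2t acts in DNA repair. Ube2c (chr2:164769898-164778822, + strand), the conjugating enzyme that starts chains for the APC/C, was at 139 and 137 CPM in Pax7_GM, 7.70 and 6.81 in Pax7_48, 182 and 200.3 in Tw2_GM, and 4.66 and 5.96 CPM in Tw2_48. All 4 growth medium libraries were at 137 CPM or more and all 4 libraries at 48 at 7.70 CPM or less. It fell by 4.08 ± 0.15 in Pax7 (adjusted p = 2.20e-07) and by 4.93 ± 0.15 in Tw2 (adjusted p = 2.71e-08). Ube2s, which extends those chains, was at 19.1 and 12.3 CPM in Pax7_GM, 6.39 and 7.59 in Pax7_48, 17.99 and 15.3 in Tw2_GM, and 4.66 and 5.21 CPM in Tw2_48, a smaller fall of 1.04 ± 0.21 and 1.57 ± 0.21. Fbxo5 (chr10:5799160-5805600, - strand), the APC/C inhibitor Emi1, was at 15.7 and 19.3 CPM in Pax7_GM, 1.597 and 0.393 in Pax7_48, 69.7 and 66.8 in Tw2_GM, and 0.364 and 0.958 CPM in Tw2_48. The 4 libraries at 48 held 17, 3, 5 and 9 reads. It fell by 3.28 ± 0.29 in Pax7 (adjusted p = 1.41e-05) and by 5.40 ± 0.29 in Tw2 (adjusted p = 5.27e-07).

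Ube2c and Fbxo5 are set here beside the muscle genes, in the same window and strand convention; capitals mark TTTGAA, the core of the CHR element of many cell cycle genes, and CCAAT, on both strands.
Ube2c (chr2:164769679-164769928, + strand): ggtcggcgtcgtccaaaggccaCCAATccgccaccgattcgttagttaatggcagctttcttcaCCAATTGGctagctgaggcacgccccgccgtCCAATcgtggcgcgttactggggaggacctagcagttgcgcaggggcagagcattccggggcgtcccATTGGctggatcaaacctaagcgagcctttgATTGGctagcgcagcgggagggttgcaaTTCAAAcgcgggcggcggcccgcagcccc
Fbxo5 (chr10:5805466-5805715, - strand): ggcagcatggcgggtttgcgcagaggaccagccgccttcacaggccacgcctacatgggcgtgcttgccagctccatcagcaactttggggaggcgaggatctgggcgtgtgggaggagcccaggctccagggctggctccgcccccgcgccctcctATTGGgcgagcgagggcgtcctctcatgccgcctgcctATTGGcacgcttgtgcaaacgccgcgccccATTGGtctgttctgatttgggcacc
Ube2c holds 1 TTTGAA and 6 CCAAT, 2 of which overlap, and Fbxo5 3 CCAAT. Both windows overlap in part the gene spans given above. Of the 8 cell cycle genes with an entry, 5 hold CCAAT (34.5% of all genes), 2 hold TTTGAA (16.3% of all genes) and 0 hold CAGCTG. Of the 10 muscle list genes with an entry, 4 hold CCAAT and 0 hold TTTGAA. Over the 87 of 110 genes with an entry, 24 hold CCAAT and 9 CAGCTG.

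Ube2t (chr1:134962565-134974162, + strand), the conjugating enzyme of the Fanconi anaemia pathway, was at 23.03 and 18.5 CPM in Pax7_GM, 1.03 and 0.393 in Pax7_48, 14.8 and 14.2 in Tw2_GM, and 0.364 and 0.106 CPM in Tw2_48. At 48 it had 11, 3, 5 and 1 reads, so that its level there is near the limit of detection. It fell by 3.69 ± 0.21 and 3.65 ± 0.21, and the difference of changes was not called. The size of such falls depends on the pseudocount: with 4 in place of 1 they came to -2.39 and -2.13 for Ube2t and to -2.11 for Fbxo5 in Pax7. Usp1 (chr4:98923810-98935543, + strand), the deubiquitinase of the same pathway's FANCD2 and of PCNA, was at 12.5 and 25.3 CPM in Pax7_GM, 6.58 and 7.20 in Pax7_48, 148 and 129 in Tw2_GM, and 17.1 and 16.6 CPM in Tw2_48. In growth medium Tw2 stood 7.35-fold above Pax7, and all 4 libraries at 48 were below those of their lineage in growth medium. It fell by 1.25 ± 0.27 in Pax7 (adjusted p = 0.00277) and by 2.96 ± 0.27 in Tw2 (adjusted p = 1.34e-05). Without the shallower Pax7_GM library its difference in Pax7 was -0.77. Trim59 (chr3:69035288-69044755, - strand) was at 42.7 and 63.5 CPM in Pax7_GM, 6.01 and 4.06 in Pax7_48, 186 and 171 in Tw2_GM, and 14.3 and 14.7 CPM in Tw2_48 and fell by 3.16 ± 0.22 and 3.53 ± 0.22.

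Rnf168, a ligase for histone H2A at broken DNA, was at 23.6 and 30.1 CPM in Pax7_GM, 9.77 and 10.9 in Pax7_48, 65.9 and 63.5 in Tw2_GM, and 22.1 and 17.03 CPM in Tw2_48 and fell by 1.29 ± 0.17 and 1.69 ± 0.17. Trim37 was at 26.6 and 35.7 CPM in Pax7_GM, 13.2 and 9.56 in Pax7_48, 92.99 and 92.4 in Tw2_GM, and 35.8 and 31.6 CPM in Tw2_48, with Tw2 above Pax7 in both cultures, and fell by 1.37 ± 0.19 and 1.44 ± 0.19. Usp37, a deubiquitinase of cyclin A, was at 8.54 and 14.3 CPM in Pax7_GM, 9.49 and 10.2 in Pax7_48, 56.3 and 50.4 in Tw2_GM, and 29.4 and 26.5 CPM in Tw2_48; it fell by 0.91 ± 0.21 in Tw2 (adjusted p = 0.00385; -0.45 and not called with size factors) and was not called in Pax7.

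In growth medium 7 of the 9 were called higher in Tw2 than in Pax7 and none lower (48.7% and 26% over all genes), beside the summed proliferation markers of 1463 to 1738 CPM in Tw2_GM against 621 to 691 in Pax7_GM; their part was not tested. At 48, 5 were called higher and 1 lower (43.3% and 22.1% over all genes). The difference of changes was called lower for 3 of them (9.01% over all genes): Fbxo5 (-2.13 ± 0.41, adjusted p = 0.0108), Usp1 (-1.71 ± 0.39, adjusted p = 0.0195) and Ube2c (-0.86 ± 0.21, adjusted p = 0.0254). The call of Fbxo5 was lost without the deeper Tw2_GM library (-2.10) or the deeper Tw2_48 library (-1.87), and with a pseudocount of 0.25 (-2.29). That of Usp1 was lost without any 1 of the 6 libraries outside Pax7_GM, at -1.61 to -1.81, and that of Ube2c without 5 of those 6, at -0.71 to -0.94, and with size factors (-0.57) and quantile normalization (-0.62).

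**Figure D2:**
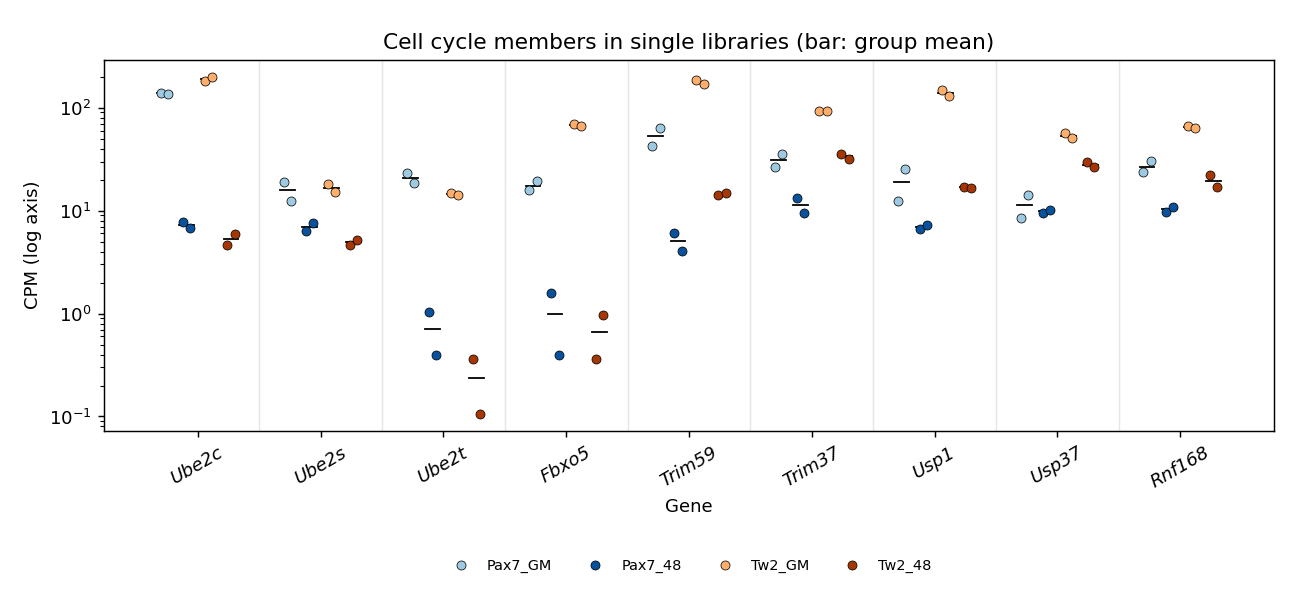
CPM (log axis) of the 9 tested cell cycle list genes in the 8 single libraries; each point is a library and each bar the mean of the 2 libraries of a group. Ube2c, Ube2t, Fbxo5 and Trim59 show the widest gaps between growth medium and 48, and Usp37 the smallest in Pax7.

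Over all 110 genes the change with culture was mixed. In Pax7 44 were called higher at 48 and 33 lower, and in Tw2 34 higher and 47 lower. The shares of 40% and 30.9% called higher were near those over all genes (38.8% and 35.3%), and the shares called lower were 30% and 42.7% (40.5% and 48.9% over all genes). The medians were 0.36 in Pax7 (0.01 over all genes) and -0.31 in Tw2 (-0.49 over all genes). Without the deeper Pax7_GM library the median in Pax7 was 0.003 (-0.29 over all genes) and without the shallower one 0.64 (0.25 over all genes). The 2 lineages share no library in this comparison: 32 genes were called higher in both, 32 lower in both and 0 in opposite directions (33.2%, 39.4% and 0.422% of all genes). Spearman's rho of the changes over the 110 genes was 0.93 (0.948 over all 5452), given as a description. Outside the muscle list, 34 of 99 genes were called higher and 33 lower in Pax7, and 24 higher and 46 lower in Tw2.

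**Figure D3:**
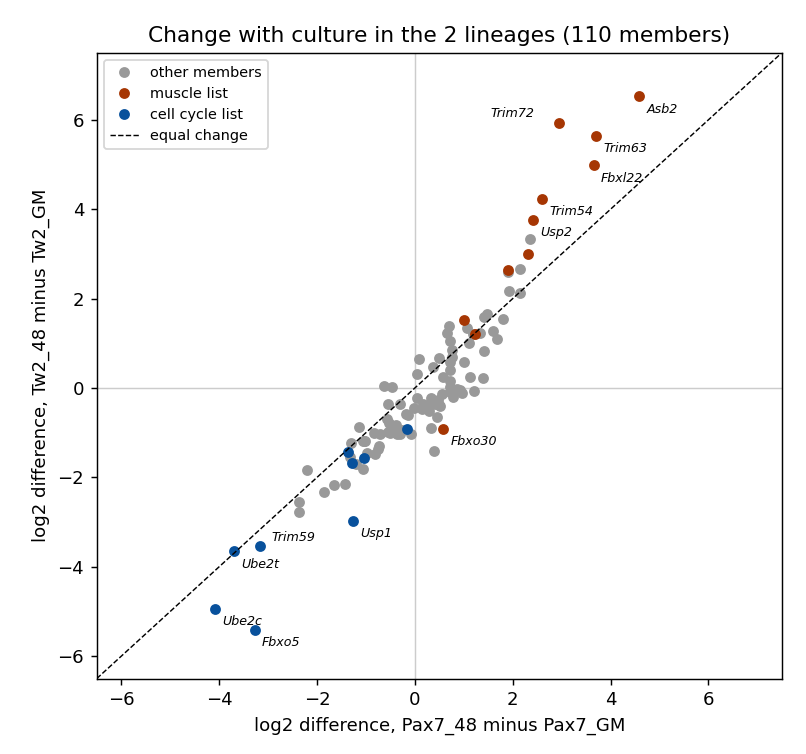
Log2 difference of CPM + 1 between 48 and growth medium in Pax7 (x axis) and in Tw2 (y axis) for the 110 genes, 1 point each; the dashed line marks an equal change. Most muscle list genes lie above the line at the upper right, with Fbxo30 well below it and Asb8 just below it, and the cell cycle genes lie at the lower left, Usp1 and Fbxo5 farthest below the line.

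Genes outside both lists rose or fell as well. Usp20 (chr2:30982279-31023586, + strand), a deubiquitinase with HMG-CoA reductase among its substrates, was at 53.6 and 39.2 CPM in Pax7_GM, 234 and 241 in Pax7_48, 22.3 and 23.7 in Tw2_GM, and 238 and 247 CPM in Tw2_48. The lineages overlapped at 48, while Pax7_GM lay above Tw2_GM. It rose by 2.35 ± 0.16 and 3.34 ± 0.16 (adjusted p = 2.78e-07), the largest rise of a gene on neither list. The difference of changes of Usp20 was 0.99 and was called higher. Rnf11, a small RING protein that binds Nedd4-type ligases, was at 72.9 and 96.5 CPM in Pax7_GM, 395 and 358 in Pax7_48, 119.6 and 120.5 in Tw2_GM, and 794 and 732 CPM in Tw2_48, a rise of 2.15 ± 0.16 and 2.66 ± 0.16 to the second highest level per kilobase in Tw2_48 (188 CPM per kb). Ube2g2, a conjugating enzyme of endoplasmic reticulum quality control, was at 165 and 129.8 CPM in Pax7_GM, 539 and 586 in Pax7_48, 69.7 and 76.7 in Tw2_GM, and 326 and 342 CPM in Tw2_48 and rose by 1.93 ± 0.15 and 2.18 ± 0.15. Fbxl2 was at 14.4 and 10.997 CPM in Pax7_GM, 59.6 and 59.3 in Pax7_48, 10.5 and 10.004 in Tw2_GM, and 47.8 and 47.99 CPM in Tw2_48 and rose by 2.15 ± 0.15 and 2.12 ± 0.15. Rnf7, the RING partner of Cul5, was at 121 and 111 CPM in Pax7_GM, 248 and 242 in Pax7_48, 85.7 and 90.1 in Tw2_GM, and 221 and 229 CPM in Tw2_48 and rose by 1.07 ± 0.12 and 1.35 ± 0.12, while Cul5 was not called in either lineage (0.71 in Pax7 and 0.15 in Tw2). With the trend of GC content and length removed Cul5 rose by 0.42 in both lineages and was called in both.

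Among the genes that fell, Usp6nl was at 32.5 and 38.8 CPM in Pax7_GM, 6.67 and 5.50 in Pax7_48, 58.3 and 58.3 in Tw2_GM, and 7.14 and 8.30 CPM in Tw2_48 and fell by 2.37 ± 0.15 and 2.77 ± 0.15. Rnf26 was at 75.9 and 65.02 CPM in Pax7_GM, 13.1 and 12.4 in Pax7_48, 69.7 and 73.7 in Tw2_GM, and 11.9 and 10.9 CPM in Tw2_48 and fell by 2.37 ± 0.13 (adjusted p = 1.09e-06) and 2.55 ± 0.13. Rnf145, which acts in sterol control, was at 146 and 139 CPM in Pax7_GM, 39.9 and 37.3 in Pax7_48, 142 and 133 in Tw2_GM, and 25.995 and 27.1 CPM in Tw2_48 and fell by 1.86 ± 0.12 and 2.33 ± 0.12. Trim28 (KAP1), a corepressor of zinc finger proteins, had the highest level per kilobase of the 110 genes in both growth medium groups, 180.5 CPM per kb in Pax7_GM and 193 in Tw2_GM. In CPM it was at 657 and 514 CPM in Pax7_GM, 282 and 273 in Pax7_48, 608 and 644 in Tw2_GM, and 272 and 279 CPM in Tw2_48. The libraries of the lineages overlapped in both cultures, and it fell by 1.06 ± 0.15 and 1.18 ± 0.15 (-0.72 in Tw2 with size factors).

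Usp22, the deubiquitinase of the SAGA coactivator, was at 270.1 and 263 CPM in Pax7_GM, 107 and 109 in Pax7_48, 268 and 246 in Tw2_GM, and 114 and 105 CPM in Tw2_48, with overlapping libraries of the lineages in both cultures, and fell by 1.29 ± 0.12 and 1.23 ± 0.12 (-0.77 in Tw2 with size factors). Ube2v1 has near-identical copies in the genome and Rnf113a2 a close relative; the counting tool is not given in the sources used here, so their values are uncertain.

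Between the lineages, most Usp genes stood higher in Tw2. In growth medium 24 of 29 Usp genes were called higher in Tw2 than in Pax7 and 2 lower, and at 48 20 higher and 1 lower. The 24 include Usp6nl, which is not a deubiquitinase (0.70 in growth medium, -0.15 with size factors). The shares over all genes were 48.7% higher and 26% lower in growth medium, and 43.3% and 22.1% at 48. Over the 110 genes the counts were 65 higher and 20 lower in growth medium, and 57 and 16 at 48. The median log2 difference of the Usp genes was 1.29 in growth medium and 1.18 at 48 (0.34 and 0.27 over all genes). By group means 22 of the 29 (75.9%) were highest in Tw2_GM, against 47.1% of all genes. This class median depends on the scaling. Size factors moved the median of all genes by -0.84 in growth medium and -0.63 at 48, to -0.50 and -0.36. They left the Usp median at 0.43 in growth medium, with 15 called higher and 4 lower. At 48 the Usp median was 0.55, with 11 higher and 7 lower. Of all 5452 genes, 1393 were called higher with size factors and 2940 lower in growth medium, and 945 and 2631 at 48.

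GC content went with these differences. The median GC content of the longest transcript was 45.4% for Usp genes and 48.7% over all genes, and the median length 5741 and 3832 bases. Over the 110 genes, Spearman's rho of the difference between Tw2_GM and Pax7_GM with GC content was -0.74 (-0.69 over 5247 genes), a description in which all points share the same 4 libraries. Of 41 genes under 45% GC, 38 were called higher in Tw2_GM and 1 lower, of 35 genes from 45 to 50% GC 22 higher and 4 lower, and of 34 genes at 50% or more 5 higher and 15 lower (48.7% and 26% of all genes). The 2 Pax7_GM libraries also differed along GC content (rho 0.76 over the 5247 genes). Of the 41 genes under 45% GC, 38 were lower in the deeper of them, at a median ratio of 0.571, and of the 34 at 50% or more 26 were higher in it. Over the 110 genes, the log2 ratio of a pair of libraries had a median size of 0.37 in Pax7_GM and 0.11 to 0.13 in the other groups. With the trend of GC content and length removed from each library, the Usp median was 0.96 in growth medium. There 22 were called higher and 3 lower. At 48 the median was 0.60, with 18 called higher and 0 lower. Over the 5247 genes the medians on this scale were 0.53 in growth medium and 0.31 at 48. Of these genes 3298 were called higher and 784 lower in growth medium, and 2475 and 688 at 48. The part of GC content in the lineage difference was not tested, and in what follows the value with the trend removed stands in brackets after each lineage difference.

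**Figure D4:**
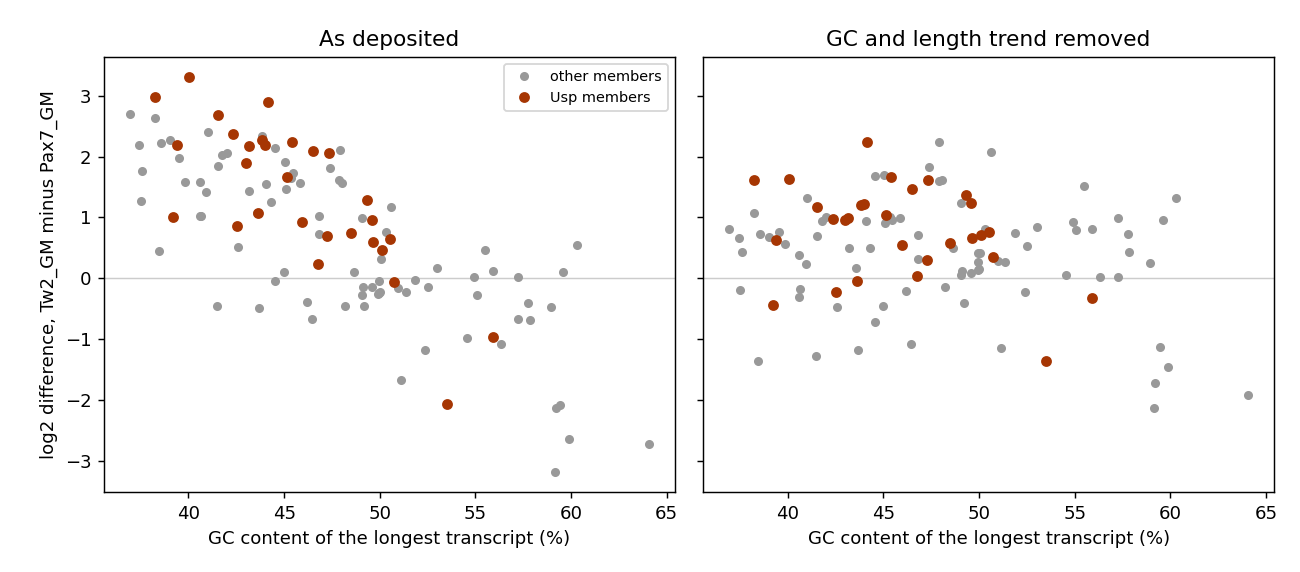
Log2 difference between Tw2_GM and Pax7_GM (y axis) against GC content of the longest transcript in percent (x axis) for the 110 genes, on the deposited scale (left) and with the trend of GC content and length over all genes removed (right); Usp genes are in dark red. On the left the points fall from the upper left to the lower right. On the right most Usp genes still lie above 0, with a median of 0.96, against 0.53 over all genes with a GC content.

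Usp9x (chrX:13071498-13173328, + strand), a large deubiquitinase on the X chromosome, had the largest lineage difference in growth medium. It was at 20.1 and 61.3 CPM in Pax7_GM, 45.004 and 47.7 in Pax7_48, 389.7 and 328 in Tw2_GM, and 149.6 and 122 CPM in Tw2_48. The 2 Pax7_GM libraries differed 3.06-fold and both lay below each Tw2 library, and Tw2 was above Pax7 at 48 as well. The log2 difference was 3.31 ± 0.42 (1.64) in growth medium (adjusted p = 0.000229) and 1.52 ± 0.42 (0.37) at 48 (adjusted p = 0.0133). At 48 the call was lost with the trend removed, with size factors (0.88) and without the deeper Pax7_48 (1.48), the shallower Pax7_48 (1.57) or the deeper Tw2_48 library (1.38).

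Usp16 (chr16:87454703-87483517, + strand), which removes ubiquitin from histone H2A, was at 4.74 and 9.65 CPM in Pax7_GM, 15.4 and 18.7 in Pax7_48, 63.01 and 58.3 in Tw2_GM, and 63.1 and 52.7 CPM in Tw2_48, with a difference of 2.98 ± 0.27 (1.61) in growth medium (adjusted p = 7.44e-05) and 1.71 ± 0.27 (0.87) at 48 (adjusted p = 0.00159). No Pax7 library reached any Tw2 library. Usp34, a very large deubiquitinase linked to Wnt signalling, was at 17.9 and 50.9 CPM in Pax7_GM, 36.1 and 40.7 in Pax7_48, 219.99 and 181 in Tw2_GM, and 113 and 100.2 CPM in Tw2_48, a difference of 2.68 ± 0.39 (1.17) in growth medium (adjusted p = 0.000437). Usp1, given above, had 2.89 ± 0.27 (2.23) in growth medium (adjusted p = 8.66e-05). Usp15, which acts on Smad signalling, was at 14.5 and 29.3 CPM in Pax7_GM, 31.7 and 26.7 in Pax7_48, 118 and 105 in Tw2_GM, and 95.5 and 88.2 CPM in Tw2_48, with 2.37 ± 0.28 (0.98) in growth medium and 1.63 ± 0.28 (0.65) at 48. Usp25 was at 7.99 and 11.96 CPM in Pax7_GM, 14.7 and 14.1 in Pax7_48, 54.2 and 45.7 in Tw2_GM, and 38.8 and 35.5 CPM in Tw2_48 with 2.23 ± 0.19 (1.66) in growth medium, Usp37 had 2.17 ± 0.21 (0.99) and Usp45 2.18 ± 0.31 (0.62). Usp47, a deubiquitinase of DNA polymerase beta, was at 32.4 and 76.2 CPM in Pax7_GM, 107 and 113 in Pax7_48, 242 and 218 in Tw2_GM, and 295 and 252 CPM in Tw2_48 and differed by 2.18 ± 0.33 (1.23).

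Of the remaining Usp genes, Usp7, which acts on Mdm2 and p53, was at 65.4 and 86.4 CPM in Pax7_GM, 51.02 and 50.5 in Pax7_48, 253 and 228 in Tw2_GM, and 128 and 115 CPM in Tw2_48 and differed by 1.66 ± 0.16 (1.04) in growth medium and 1.24 ± 0.16 (0.85) at 48. Usp48 had 1.29 ± 0.17 (1.37) and 1.17 ± 0.17 (1.18). The exceptions were Usp2 and Usp20, called lower in Tw2_GM (Usp20 by -0.96 (-0.33), adjusted p = 0.000873), and Usp22, Usp28 and Usp42, which were not called. Usp28 was at 38.6 and 47.8 CPM in Pax7_GM, 159 and 144 in Pax7_48, 54.8 and 47.01 in Tw2_GM, and 159 and 142 CPM in Tw2_48, with overlapping libraries of the lineages in both cultures.

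Of the Usp genes not described so far, Usp24, Usp31, Usp32 and Usp33 were called higher in Tw2 in both cultures, as were Usp8, Usp14, Usp29 and Usp46. Usp24 was at 26.4 and 49.2 CPM in Pax7_GM, 47.3 and 52.5 in Pax7_48, 169 and 140.2 in Tw2_GM, and 105 and 91.7 CPM in Tw2_48, with 2.06 ± 0.26 (1.61) in growth medium. Usp31 was at 19.1 and 26.04 CPM in Pax7_GM, 33.7 and 29.7 in Pax7_48, 103 and 93.9 in Tw2_GM, and 79.2 and 71.3 CPM in Tw2_48, with 2.09 ± 0.17 (1.47) and 1.22 ± 0.17 (0.74). Usp32 and Usp33 had 2.27 ± 0.31 (1.21) and 1.90 ± 0.26 (0.96) in growth medium. Usp8, which acts on receptors in endosomes, was at 44.7 and 65.6 CPM in Pax7_GM, 46.1 and 42.03 in Pax7_48, 110.3 and 98.4 in Tw2_GM, and 83.2 and 80.03 CPM in Tw2_48. Usp14, the deubiquitinase bound to the proteasome, was at 132 and 149.9 CPM in Pax7_GM, 111 and 106 in Pax7_48, 291 and 280.5 in Tw2_GM, and 173 and 149.6 CPM in Tw2_48, and with the trend removed the sign of its lineage difference and that of Usp46 turned in both cultures. That of Usp29 turned in growth medium. At 48 Usp14 and Usp46 turned with size factors as well. Usp12, Usp49 and Usp54 were called higher in Tw2_GM and not called at 48, and the sign in growth medium turned with size factors for Usp49 and Usp54; the difference of changes was not called for these 3.

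Of the 6 cullins, 5 were called higher in Tw2 in both cultures and Cul9 lower in both (37% and 14.7% of all genes were). With the trend removed the 5 stayed called in growth medium. At 48 Cul5 and Cul4b stayed called, and Cul1 (0.56 ± 0.21 (0.22)), Cul2 (0.76 ± 0.18 (0.03)) and Cul3 (1.17 ± 0.33 (0.22)) did not. With size factors Cul1 came to -0.09 at 48. Cul1, the scaffold of F-box ligases, was at 48.8 and 76.8 CPM in Pax7_GM, 115 and 97.5 in Pax7_48, 188 and 174 in Tw2_GM, and 159 and 154 CPM in Tw2_48, with 1.55 ± 0.21 (0.94) in growth medium (adjusted p = 0.000294). Cul3, the scaffold of BTB-domain receptors, was at 22.1 and 51.5 CPM in Pax7_GM, 69.2 and 63.9 in Pax7_48, 177 and 148 in Tw2_GM, and 162 and 139.5 CPM in Tw2_48, with 2.23 ± 0.33 (0.72). The Pax7_GM libraries differed 2.33-fold for Cul3, and the Tw2 libraries were all above the Pax7 libraries. Cul5, the scaffold of the Asb receptors, was at 12.2 and 27.2 CPM in Pax7_GM, 31.6 and 29.7 in Pax7_48, 99.2 and 84.8 in Tw2_GM, and 109 and 95.6 CPM in Tw2_48, with 2.27 ± 0.31 (0.67) in growth medium and 1.71 ± 0.31 (0.67) at 48 (adjusted p = 0.00242). Cul4b, on the X chromosome, was at 17.3 and 32.8 CPM in Pax7_GM, 25.2 and 20.6 in Pax7_48, 140.3 and 121 in Tw2_GM, and 66.6 and 60.8 CPM in Tw2_48, with 2.40 ± 0.27 (1.32) and 1.44 ± 0.27 (0.80). Cul2, the scaffold of the von Hippel-Lindau receptor, was at 22.1 and 32.2 CPM in Pax7_GM, 43.7 and 45.6 in Pax7_48, 86.4 and 77.4 in Tw2_GM, and 78.1 and 74.6 CPM in Tw2_48, with 1.58 ± 0.18 (0.38) in growth medium. All 5 have a GC content of at most 44.1%.

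Cul9 (chr17:46500572-46546388, - strand, 59.2% GC), also called Parc, was at 24.4 and 18.5 CPM in Pax7_GM, 22.5 and 21.7 in Pax7_48, 4.52 and 3.63 in Tw2_GM, and 4.59 and 5.96 CPM in Tw2_48. Pax7 exceeded Tw2 5.27-fold in growth medium and 4.19-fold at 48 in mean CPM, with no overlap, and no change with culture was called in either lineage. The log2 difference was -2.14 ± 0.18 (-1.72) in growth medium (adjusted p = 5.75e-05) and -1.89 ± 0.18 (-1.74) at 48 (adjusted p = 0.000235), and it was called under each of the alternatives that were run. Ube3a (chr7:59228750-59311536, + strand), the HECT-domain ligase lost in Angelman syndrome and the gene of lowest GC content here (36.9%), was at 8.81 and 22.6 CPM in Pax7_GM, 25.5 and 23.04 in Pax7_48, 113 and 84.9 in Tw2_GM, and 97.3 and 91.8 CPM in Tw2_48. It differed by 2.70 ± 0.35 (0.81) in growth medium (adjusted p = 0.000259) and 1.92 ± 0.35 (0.64) at 48 (adjusted p = 0.00263), with no overlap between lineages.

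In the Trim family 7 of 18 were called higher in Tw2 and 5 lower in growth medium, and 9 higher and 5 lower at 48, near the shares over all genes (48.7% and 26%, then 43.3% and 22.1%), with medians of -0.09 and 0.37 (0.34 and 0.27 over all genes). Trim47 (chr11:116105752-116127210, - strand), the gene of highest GC content here (64.1%), was at 24.9 and 15.8 CPM in Pax7_GM, 10.8 and 14.3 in Pax7_48, 1.81 and 2.57 in Tw2_GM, and 2.26 and 2.23 CPM in Tw2_48. It was lower in Tw2 by -2.72 ± 0.23 (-1.92) (adjusted p = 5.90e-05) and -2.05 ± 0.23 (-1.49) (adjusted p = 0.000467), and no Tw2 library reached a Pax7 library. Trim33, a ligase for Smad4, was at 9.21 and 23.2 CPM in Pax7_GM, 7.33 and 8.51 in Pax7_48, 85.5 and 71.1 in Tw2_GM, and 28.98 and 25.97 CPM in Tw2_48 and higher in Tw2 by 2.33 ± 0.34 (1.20) in growth medium (adjusted p = 0.000440). Trim23 was at 2.57 and 6.17 CPM in Pax7_GM, 8.17 and 6.68 in Pax7_48, 27.6 and 17.5 in Tw2_GM, and 32.6 and 26.3 CPM in Tw2_48, higher by 2.18 ± 0.33 (0.66) and 1.85 ± 0.33 (0.90). Trim2 (chr3:84160439-84306877, - strand), a ligase for neurofilament light chain, was at 5.83 and 7.52 CPM in Pax7_GM, 7.23 and 6.94 in Pax7_48, 26.9 and 21.8 in Tw2_GM, and 36.5 and 40.2 CPM in Tw2_48. It was the gene with the largest difference in favour of Tw2 at 48, 2.28 ± 0.16 (1.75) (adjusted p = 9.43e-05), after 1.72 ± 0.16 (0.96) in growth medium. Trim35 was at 318 and 294 CPM in Pax7_GM, 755 and 786 in Pax7_48, 279 and 276 in Tw2_GM, and 673 and 635 CPM in Tw2_48, the third highest level per kilobase in Pax7_48 (209 CPM per kb), and rose by 1.33 ± 0.12 in Pax7 (0.80 under quantile normalization) and 1.23 ± 0.12 in Tw2, with neither lineage comparison called. Trim24, a corepressor of nuclear receptors, was at 28.6 and 34.3 CPM in Pax7_GM, 21.4 and 20.9 in Pax7_48, 69.4 and 58.1 in Tw2_GM, and 48.1 and 50.3 CPM in Tw2_48 and called higher in Tw2 in both cultures. Trim26 was at 75.5 and 70.996 CPM in Pax7_GM, 25.9 and 31.2 in Pax7_48, 60.6 and 69.9 in Tw2_GM, and 21.5 and 22.03 CPM in Tw2_48 and fell by 1.33 ± 0.14 and 1.54 ± 0.14, and Trim27 was at 114 and 102 CPM in Pax7_GM, 68.1 and 63.8 in Pax7_48, 91.8 and 93.1 in Tw2_GM, and 43.3 and 45.9 CPM in Tw2_48 and was called lower at 48 in both lineages. Trim16 was at 144 and 136 CPM in Pax7_GM, 73.1 and 61.4 in Pax7_48, 128 and 126 in Tw2_GM, and 32.5 and 38.7 CPM in Tw2_48, lower in Tw2 at 48 by -0.90 ± 0.15 (-0.72) (adjusted p = 0.00177).

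Of 11 interferon-linked genes only Trim25 and Trim56 were tested. Trim25, which activates the RNA sensor RIG-I, was at 42.8 and 45.3 CPM in Pax7_GM, 74.2 and 70.4 in Pax7_48, 41.4 and 44.4 in Tw2_GM, and 117 and 112 CPM in Tw2_48. The growth medium libraries of the lineages overlapped and both lineages rose, Pax7 by 0.70 ± 0.12 and Tw2 by 1.40 ± 0.12. The difference of changes was 0.69 ± 0.17 (adjusted p = 0.0283), and the call was lost without any 1 of the 6 libraries outside Pax7_GM, at 0.64 to 0.74. Trim56 was at 11.9 and 10.997 CPM in Pax7_GM, 7.61 and 7.73 in Pax7_48, 21.03 and 19.1 in Tw2_GM, and 11.5 and 10.9 CPM in Tw2_48 and fell in Pax7 by 0.52 ± 0.13, or by 0.30 with size factors and 0.20 with quantile normalization, where it was not called.

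Of the 24 Rnf genes, 15 were called higher in Tw2 and 3 lower in growth medium, and 13 and 2 at 48. These are 62.5% and 12.5%, then 54.2% and 8.33%, against 48.7% and 26%, then 43.3% and 22.1%, over all genes. Rnf128 (Grail), on the X chromosome, was at 3.52 and 6.17 CPM in Pax7_GM, 14.3 and 13.7 in Pax7_48, 22.6 and 25.8 in Tw2_GM, and 31.3 and 25.97 CPM in Tw2_48, with 2.14 ± 0.22 (1.68) in growth medium (adjusted p = 0.000111). Rnf2, the Polycomb ligase for histone H2A, was at 13.95 and 29.1 CPM in Pax7_GM, 19.5 and 17.02 in Pax7_48, 84.04 and 80.2 in Tw2_GM, and 58.2 and 50.3 CPM in Tw2_48, with 1.97 ± 0.29 (0.76) in growth medium and 1.52 ± 0.29 (0.79) at 48 (adjusted p = 0.00293). Rnf20, the ligase for histone H2B, was at 25.7 and 43.4 CPM in Pax7_GM, 52.1 and 48.97 in Pax7_48, 109 and 99.2 in Tw2_GM, and 129 and 116 CPM in Tw2_48, with 1.61 ± 0.22 (1.60) and 1.26 ± 0.22 (1.27). Rnf19a had 1.47 ± 0.19 (0.90) in growth medium. Rnf122 was at 17.1 and 12.9 CPM in Pax7_GM, 38.8 and 43.6 in Pax7_48, 12.5 and 12.7 in Tw2_GM, and 22.1 and 23.9 CPM in Tw2_48 and was lower in Tw2 at 48 by -0.81 ± 0.16 (-0.57) (adjusted p = 0.00325), with both lineages higher at 48 than in growth medium. Rnf6, which is a ligase for the androgen receptor, was at 14.2 and 28.7 CPM in Pax7_GM, 35.3 and 33.3 in Pax7_48, 76.6 and 71.4 in Tw2_GM, and 82.4 and 68.7 CPM in Tw2_48, with 1.82 ± 0.28 (1.83) in growth medium. Rnf146, which recognises poly(ADP-ribose), was at 16.9 and 26.2 CPM in Pax7_GM, 32.98 and 24.6 in Pax7_48, 59.97 and 57.8 in Tw2_GM, and 47.5 and 44.1 CPM in Tw2_48, with 1.44 ± 0.22 (0.50). Rnf111 (Arkadia), a ligase for inhibitors of Tgf-beta signalling, was at 39.02 and 49.2 CPM in Pax7_GM, 42.1 and 44.1 in Pax7_48, 91.1 and 88.97 in Tw2_GM, and 67.7 and 64.3 CPM in Tw2_48 and called higher in Tw2 in both cultures. Rnf170 was called higher in growth medium at 0.677 and 4.63 CPM in Pax7_GM, the deeper library of which held 5 reads, and 12.5 and 11.1 CPM in Tw2_GM. Rnf113a2 was called higher in both cultures. The sign in growth medium turned with the trend removed or with size factors for Rnf11, Rnf13, Rnf24, Rnf166 and Rnf217, as for Rnf123 above.

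With culture, 11 of the 24 Rnf genes were called higher and 6 lower in Pax7, and 9 higher and 8 lower in Tw2 (38.8% and 40.5%, then 35.3% and 48.9%, over all genes). Rnf13 was at 8.94 and 16.8 CPM in Pax7_GM, 45.6 and 37.6 in Pax7_48, 30.9 and 31.5 in Tw2_GM, and 70.1 and 65.3 CPM in Tw2_48 and rose by 1.67 ± 0.25 and 1.09 ± 0.25. Rnf217 was at 43.4 and 47.3 CPM in Pax7_GM, 145 and 134 in Pax7_48, 62.3 and 61.6 in Tw2_GM, and 154 and 149.6 CPM in Tw2_48 and rose by 1.60 ± 0.12 and 1.28 ± 0.12. Rnf166 and Rnf185 were also called higher at 48 in both lineages. Rnf149 was at 72.2 and 76.4 CPM in Pax7_GM, 15.5 and 15.2 in Pax7_48, 73.1 and 86.2 in Tw2_GM, and 23.2 and 20.1 CPM in Tw2_48 and fell by 2.20 ± 0.14 and 1.83 ± 0.14, and Rnf24 and Rnf169 were also called lower in both.

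The 3 genes on the X chromosome, Usp9x, Cul4b and Rnf128, were all called higher in Tw2_GM, as were 48.7% of all genes. The sex of the animals is not given in the labels.

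Among the 16 F-box genes, 7 were called higher in Tw2_GM and 5 lower, and 5 each way at 48 (48.7% and 26%, then 43.3% and 22.1%, over all genes). Fbxo11 was at 15.3 and 30.5 CPM in Pax7_GM, 25.2 and 28.4 in Pax7_48, 97.4 and 85.7 in Tw2_GM, and 67.4 and 60.9 CPM in Tw2_48, higher in Tw2 by 2.03 ± 0.27 (0.94) in growth medium. Fbxo7, known from mitophagy, was at 21.8 and 16.8 CPM in Pax7_GM, 9.49 and 11.1 in Pax7_48, 11.8 and 11.6 in Tw2_GM, and 5.75 and 4.90 CPM in Tw2_48. Its differences were -0.66 ± 0.16 (-1.09) and -0.84 ± 0.16 (-1.12) (adjusted p = 0.00333), and both lineages fell, by 0.84 ± 0.16 and 1.01 ± 0.16. Fbxo17 was at 31.02 and 26.4 CPM in Pax7_GM, 113 and 108 in Pax7_48, 15.5 and 10.8 in Tw2_GM, and 81.3 and 84.5 CPM in Tw2_48 and rose by 1.91 ± 0.18 and 2.59 ± 0.18. Fbxo10 was at 27.1 and 26.6 CPM in Pax7_GM, 76.1 and 71.2 in Pax7_48, 31.4 and 27.1 in Tw2_GM, and 89.6 and 88.9 CPM in Tw2_48 and rose by 1.42 ± 0.13 and 1.58 ± 0.13. Fbxo31, a receptor for cyclin D1, was at 20.7 and 19.7 CPM in Pax7_GM, 42.6 and 47.1 in Pax7_48, 14.05 and 14.6 in Tw2_GM, and 28.8 and 30.8 CPM in Tw2_48 and rose by 1.11 ± 0.13 and 1.00 ± 0.13. Fbxo21 was at 83.3 and 72.7 CPM in Pax7_GM, 30.3 and 26.3 in Pax7_48, 87.3 and 88.2 in Tw2_GM, and 20.4 and 17.6 CPM in Tw2_48 and fell by 1.43 ± 0.14 and 2.16 ± 0.14. Fbxo3 was at 24.4 and 32.99 CPM in Pax7_GM and 66.5 and 55.95 in Tw2_GM. It was called higher at 48 in both lineages, as was Fbxo6, which binds glycoproteins. With the trend removed the rise of Fbxo6 came to 0.24 in Pax7 and 0.03 in Tw2 and was called in neither. Fbxo45 was called higher in Tw2 in both cultures. Fbxl14, a ligase for Snail, was at 68.96 and 69.5 CPM in Pax7_GM, 34.5 and 34.96 in Pax7_48, 70.1 and 70.1 in Tw2_GM, and 24.5 and 25.1 CPM in Tw2_48 and fell by 0.97 ± 0.12 and 1.46 ± 0.12, and Fbxl19 was at 42.1 and 41.3 CPM in Pax7_GM, 12.8 and 12.6 in Pax7_48, 64.2 and 58.7 in Tw2_GM, and 16.02 and 10.3 CPM in Tw2_48 and fell by 1.64 ± 0.19 and 2.17 ± 0.19.

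For conjugating enzymes the share called higher in Tw2_GM was near that of the listed genes at large. Of 13 Ube2 genes, 6 (46.2%) were called higher in Tw2_GM and 2 lower (15.4%), against 48.7% and 26% of all genes. The median was 0.10 (0.34 over all genes), and whether the class differs was not tested. Ube2q2 (chr9:55148854-55207529, + strand) was at 4.61 and 9.07 CPM in Pax7_GM, 15.1 and 13.2 in Pax7_48, 31.1 and 31.8 in Tw2_GM, and 51.3 and 44.8 CPM in Tw2_48, higher in Tw2 by 2.11 ± 0.25 (2.23) (adjusted p = 0.000180) and 1.69 ± 0.25 (1.80) (adjusted p = 0.00125). Ube2w, which modifies the amino terminus of proteins, was at 13.7 and 22.6 CPM in Pax7_GM, 32.1 and 21.6 in Pax7_48, 53.8 and 56.04 in Tw2_GM, and 51.4 and 48.5 CPM in Tw2_48 with 1.59 ± 0.25 (0.57) in growth medium. Ube2n, which builds lysine-63 chains, was at 31.97 and 43.8 CPM in Pax7_GM and 77.96 and 76.6 in Tw2_GM, and at 44.5 and 38.9 and 58.5 and 52.1 at 48. Ube2h was at 69.9 and 75.2 CPM in Pax7_GM, 115 and 115 in Pax7_48, 64.6 and 66.2 in Tw2_GM, and 161 and 149 CPM in Tw2_48, and rose by 0.66 ± 0.12 and 1.23 ± 0.12. Ube2k was at 51.9 and 67.7 CPM in Pax7_GM and 124 and 119.5 in Tw2_GM and Ube2g1 at 27.4 and 33.6 and 86.7 and 78.5, both called higher in Tw2_GM, though the sign of Ube2k turned with the trend removed. Ube2e2 was at 11.8 and 11.4 CPM in Pax7_GM and 18.9 and 20.4 in Pax7_48, and was called higher at 48 in both lineages. The partner of Ube2n, Ube2v1, was at 36.4 and 27.4 CPM in Pax7_GM, 56.1 and 51.8 in Pax7_48, 25.4 and 26.6 in Tw2_GM, and 48.8 and 47.1 CPM in Tw2_48 and was called higher at 48 in both lineages.

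**Figure D5:**
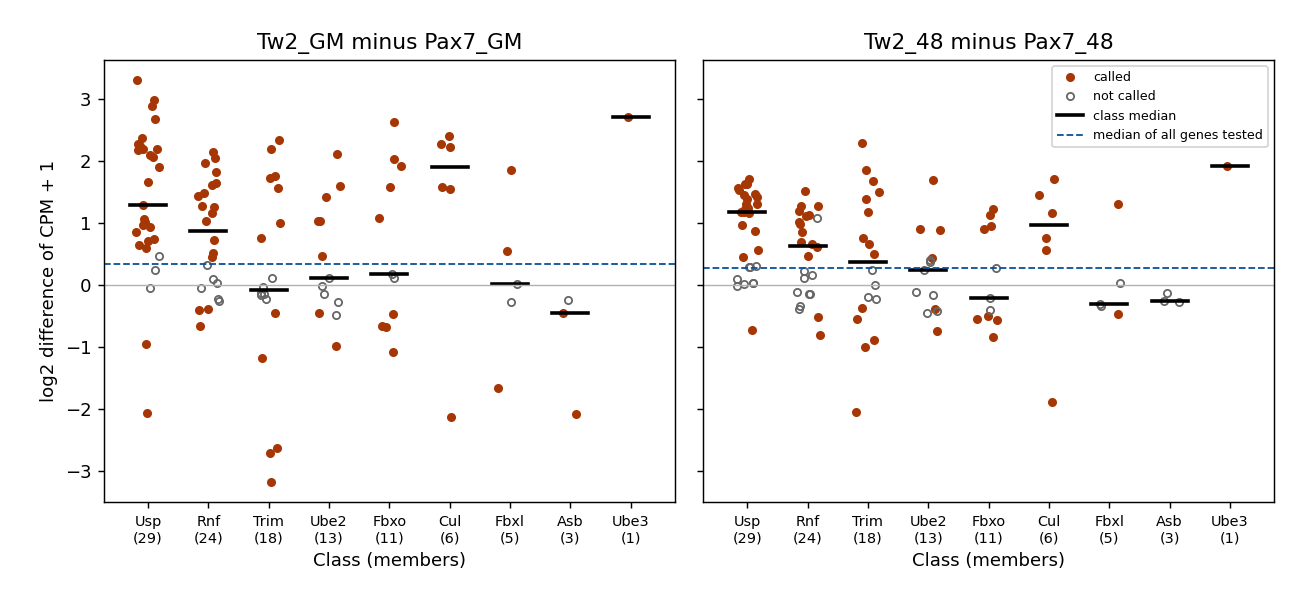
Log2 difference of CPM + 1 between the Tw2 and Pax7 libraries in growth medium (left) and at 48 (right), 1 point per gene, by class, with the number of genes in brackets; black bars are class medians, filled points were called and the dashed line is the median of all genes tested. Usp and Cul genes lie mostly above the dashed line in both cultures (class medians of 1.29 and 1.90 in growth medium), and Trim genes spread from -3.19 to 2.33.

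Over all 110 genes, 53 were called higher in Tw2 in both cultures, 8 lower in both and 2 in opposite directions (37%, 14.7% and 3.28% of all genes). The last 2 were Trim63 and Ube2c, chosen here after their values were seen. Neither held on all scales. Trim63 was not called in growth medium with the trend removed. Ube2c differed by 0.47 in growth medium and -0.39 at 48. It was lower in both with size factors (-0.40 and -0.97) and quantile normalization (-0.03 and -0.65) and higher in both with the trend removed (1.51 and 0.28). The counts depend on the scaling: genes called with the same sign on all 4 scales (as deposited, trend-free, quantile-normalized and scaled by size factors) were 42 higher and 11 lower in growth medium (23.1% and 9.74% of all genes), and 27 and 7 at 48 (16.2% and 9.09%). For the changes with culture these counts were 43 higher and 26 lower in Pax7 (35.8% and 36.6% of all genes), and 32 and 35 in Tw2 (31.4% and 40.7%). Of the 85 called in growth medium, 22 had the other sign on at least 1 scale: Rnf11, Rnf13, Rnf24, Rnf123, Rnf166, Rnf217, Usp6nl, Usp13, Usp14, Usp29, Usp46, Usp49, Usp54, Ube2c, Ube2g2, Ube2k, Ube2n, Fbxo6, Fbxo17, Fbxo31, Fbxl19 and Trim56. At 48 the same held for 11 of 73: Rnf13, Rnf111, Rnf149, Usp14, Usp46, Ube2c, Ube2h, Fbxo6, Fbxl14, Trim56 and Cul1. With culture it held for 0 of 77 in Pax7 and for 3 of 81 in Tw2, Ube2k, Trim24 and Rnf111. The difference of changes was called higher for 9 and lower for 8 genes (9.72% and 9.01% of all genes), and 8 and 3 of them were called on all 4 scales (6.46% and 3.39%). The shares on all 4 scales are over the 5247 genes with a GC content and length. Leaving out 1 library moved the 57 called higher at 48 to between 37 (without the deeper Tw2_48 library) and 65, and the 8 lower differences of changes to between 0 and 57 (without the shallower Pax7_GM library). Rnf128 (-1.17 ± 0.31) and Usp25 (-0.92 ± 0.27) were among the 8; their calls were lost without any 1 of the 6 libraries outside Pax7_GM, at -1.04 to -1.30 and at -0.80 to -1.05.

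Other genes of the pathway were taken from a list of 133, of which 64 were tested. In Tw2_GM against Pax7_GM 41 were called higher and 11 lower, and at 48 38 higher and 8 lower (64.1% and 17.2%, then 59.4% and 12.5%, against 48.7% and 26%, then 43.3% and 22.1%, over all genes). Uba6, an activating enzyme, was at 4.47 and 9.45 CPM in Pax7_GM, 6.67 and 5.50 in Pax7_48, 70.9 and 51.6 in Tw2_GM, and 20.8 and 16.4 CPM in Tw2_48, with 3.02 ± 0.30 (1.27) in growth medium (adjusted p = 0.000103), and Uba3, of the enzyme that activates Nedd8 for cullins, at 17.5 and 38.01 CPM in Pax7_GM, 66.05 and 59.97 in Pax7_48, 186 and 176 in Tw2_GM, and 206 and 185 CPM in Tw2_48, with 2.76 ± 0.30 (1.80). Cdc27, a subunit of the APC/C, had 2.98 ± 0.41 (1.50) and Xiap 2.81 ± 0.35 (1.01). At 48 Senp7, a protease for the ubiquitin-like protein SUMO, had 1.99 ± 0.34 (1.12) and Atxn3 1.77 ± 0.27 (0.88). With culture 26 were called higher and 18 lower in Pax7, and 20 higher and 25 lower in Tw2 (38.8% and 40.5%, then 35.3% and 48.9%, over all genes). Cdc20, the activator of the APC/C, was at 178 and 155 CPM in Pax7_GM, 4.70 and 4.19 in Pax7_48, 155 and 164 in Tw2_GM, and 3.28 and 3.51 CPM in Tw2_48, and fell by 4.94 ± 0.13 and 5.19 ± 0.13. Uhrf1 fell by 4.56 ± 0.19 and 5.16 ± 0.19 and Bard1 by 3.94 ± 0.19 and 4.89 ± 0.19. Klhl40 and Klhl41, BTB-Kelch proteins of the sarcomere, rose by 3.99 ± 0.17 and 3.51 ± 0.14 in Pax7 and by 5.39 ± 0.17 and 6.18 ± 0.14 in Tw2. The difference of changes was called higher for 4 and lower for 6 of the 64 (9.72% and 9.01% over all genes). The 4 of largest size were Klhl41 (2.67 ± 0.19, adjusted p = 0.000180), Herc3 (1.68 ± 0.22), Uba6 (-1.56 ± 0.43, adjusted p = 0.0383) and Klhl40 (1.40 ± 0.25). The call of Uba6 was lost without any 1 of the 6 libraries outside Pax7_GM, at -1.79 to -1.34.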

How the data were processed

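The data are 1 deposited table of mean CPM (read counts scaled to a common library size) for 4 groups and of log2 fold changes against Tw2_GM, which the authors computed from group means + 1. TopHat2 2.0.0, DESeq2 1.6.3 and GRCm38 are named, with no role, per the submitters' processing notes; the counting tool and the annotation are not given in the sources used here. All 5457 listed genes have the same entry in a status column, which was not used.

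Each deposited mean was taken apart into whole reads of its 2 libraries, whose sizes were estimated from the steps between low values. This gave a single solution for 5452 genes; 5 were not tested. The libraries of a pair are told apart by depth only and carry no replicate numbers. Depth of 5.18 to 13.7 M reads makes 3 reads 0.218 to 0.579 CPM. Log2(CPM + 1) of the 8 libraries was fitted with limma 3.58.1 (R 4.3.3, 1 mean a group, empirical Bayes without trend, 4 residual and 4.02 prior degrees of freedom) and adjusted by Benjamini-Hochberg over 5452 genes. The median standard error was 0.16 for a group comparison and 0.23 for a difference of changes. Solver and fit were tested on simulated data. Gene type, GC content and length came from GENCODE M21, and bases before gene starts from RefSeq (GRCm38.p6), matched by symbol for 87 of the 110 genes.

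Named with values were all tested genes of a muscle, a cell cycle and an interferon-linked list and of classes with at most 6 genes, the 6 largest called differences of each sign with libraries apart in each comparison (4 in the difference of changes) and up to 4 genes a comparison of a list of other pathway genes; further genes were described after their values were seen. Some genes stand in the counts but are not reported here by name. The members and the lists were chosen with earlier results of these data known. Alternatives were pseudocounts of 0.25 and 4, a mean of at least 20 CPM, size factors, quantile normalization, removal of the GC and length trend, limma with trend, only the compared groups, leaving out each library and, chosen after seeing the data, voom on the recovered reads.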

Additional observations from a re-analysis of the deposited data

Results flagged for a closer look

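For the following genes the change from growth medium to 48 differed between the lineages by the test of the difference itself (Tw2 change less Pax7 change, log2 of CPM + 1, limma with Benjamini-Hochberg adjustment). Among the muscle genes the change was larger in Tw2 for Trim72 (2.99), Asb2 (1.94), Trim63 (1.94), Trim54 (1.63), Usp2 (1.33), Fbxl22 (1.32) and Trim55 (0.69). Outside that list it was larger in Tw2 for Usp20 (0.99) and Trim25 (0.69). Among the cell cycle genes the fall was larger in Tw2 for Fbxo5 (-2.13), Usp1 (-1.71) and Ube2c (-0.86). Rnf128 and Usp25 had -1.17 and -0.92. In the other genes of the pathway the values were 2.67 for Klhl41, 1.68 for Herc3, 1.40 for Klhl40 and -1.56 for Uba6. The calls of Trim55, Trim25, Usp1, Rnf128, Usp25 and Uba6 were lost without any 1 of the 6 libraries outside Pax7_GM.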

How the results depend on the processing

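Counts of genes called between the lineages moved most with the scaling. With size factors, 43 of the 110 genes were called higher and 46 lower in Tw2_GM against Pax7_GM (65 and 20 on the deposited scale), and 27 higher and 47 lower at 48 (57 and 16). Quantile normalization gave 41 lower in growth medium and 25 lower at 48, and a fit of only the compared groups 25 lower at 48. Over all genes tested in growth medium, the share of calls that were higher was 65.2% on the deposited scale, 80.8% once the trend of GC content and length was removed, 47.2% after quantile normalization and 32.1% with size factors. Size factors moved the median of all genes by 0.24 in Pax7 and 0.45 in Tw2 in the changes with culture, and quantile normalization by -0.48 and -0.29 in the lineage comparisons. The 9 higher differences of changes became 15 once the trend was removed and 14 after quantile normalization. The 8 lower ones became 3 with size factors, 21 with the trend removed, 13 with a pseudocount of 4 and 18 with voom, which was chosen after seeing the data. The cause was not tested. Among the lineage differences printed for single genes, sign changes were seen in growth medium for Usp13 (0.74 as deposited, -0.015 with size factors), Rnf123 (-0.67, 0.017 with the trend removed) and Ube2c (0.47, -0.40 with size factors and -0.028 after quantile normalization), and at 48 for Cul1 (0.56, -0.091 with size factors), Ube2c (-0.39, 0.28 with the trend removed) and Trim72 (-0.20, 0.48 with the trend removed); genes without a printed value that changed sign are named in the text.

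Leaving out 1 library gave 60 to 68 genes higher and 14 to 25 lower in growth medium, 37 to 65 higher and 9 to 25 lower at 48, 36 to 63 higher and 29 to 46 lower for the change in Pax7, 32 to 36 higher and 40 to 56 lower for the change in Tw2, and 6 to 14 higher and 0 to 57 lower for the difference of changes. With a library left out, its partner is assumed to vary like the other groups. No paired analysis was possible because the recovered libraries carry no replicate numbers. A planned quasi-likelihood test was not run, and voom on the recovered reads was run in its place. Under a mean of at least 20 CPM 15 of the 110 genes had no value. Depth limits Fbxo5 and Ube2t at 48, where single libraries held 1 to 17 reads.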
